A study of Mus musculus with 30 samples.

Results

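Chromatin remodellers and the enzymes that write or erase histone and DNA marks were followed as a set of 32 genes in CD4 T cells of WT and PKA KO mice. The genes were chosen by name for their function, as SWI/SNF subunits, Polycomb repressive complex PRC2, H3K27 demethylases, H3K4 and H3K36 methyltransferases, DNA methyltransferases, TET dioxygenases, class I histone deacetylases and the remodeller Chd4. All 32 were found in both RNA count tables, among 25865 gene symbols in the table of naive and activated cells and 25860 in the forskolin table. SWI/SNF complexes use ATP to slide or evict nucleosomes, and PRC2 places the repressive mark H3K27me3. DNA methyltransferases methylate cytosine, TET enzymes oxidise that methyl group, and class I deacetylases remove acetyl groups from histones. In T cells these enzymes are known for shaping the choice of effector fate after antigen, and they were examined here beside the wide change of open chromatin in activated KO cells.

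Start-site sequences are shown for 4 members whose RNA or start-site accessibility differed between genotypes or rose on activation, because the kinase acts on CREB, a factor that binds the cyclic AMP response element. Each window runs from 250 bases before to 50 bases after a RefSeq start in GRCm38.p6 (mm10), and 27 of the 32 members were matched in that table. Capitals mark the 5-base core TGACG on either strand, or the E2F-type motif TTTNGCGC on either strand, where N is any base. The E2F-type motif was chosen after the activation values were seen.
Ezh2, chr6:47594981-47595280, minus strand: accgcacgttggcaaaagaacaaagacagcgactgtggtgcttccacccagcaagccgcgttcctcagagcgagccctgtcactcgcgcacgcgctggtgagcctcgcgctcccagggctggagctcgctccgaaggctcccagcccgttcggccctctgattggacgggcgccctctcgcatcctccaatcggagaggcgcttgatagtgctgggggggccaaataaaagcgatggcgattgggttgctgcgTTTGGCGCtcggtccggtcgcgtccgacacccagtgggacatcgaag
Dnmt1, chr9:20952574-20952873, minus strand: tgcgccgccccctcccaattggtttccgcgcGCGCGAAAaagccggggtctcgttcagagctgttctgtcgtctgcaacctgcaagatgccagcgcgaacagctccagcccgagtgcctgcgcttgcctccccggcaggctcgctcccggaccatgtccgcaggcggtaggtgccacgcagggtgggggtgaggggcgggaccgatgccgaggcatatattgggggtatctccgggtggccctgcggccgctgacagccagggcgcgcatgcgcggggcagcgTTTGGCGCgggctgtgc
Tet2, chr3:133544341-133544640, minus strand: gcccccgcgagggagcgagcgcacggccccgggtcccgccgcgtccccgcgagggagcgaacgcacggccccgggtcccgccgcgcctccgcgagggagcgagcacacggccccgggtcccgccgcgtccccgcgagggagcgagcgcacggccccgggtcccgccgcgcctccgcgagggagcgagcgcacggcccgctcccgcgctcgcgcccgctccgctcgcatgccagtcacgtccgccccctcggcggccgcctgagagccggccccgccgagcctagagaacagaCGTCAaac
Dnmt3a, chr12:3806730-3807029, plus strand: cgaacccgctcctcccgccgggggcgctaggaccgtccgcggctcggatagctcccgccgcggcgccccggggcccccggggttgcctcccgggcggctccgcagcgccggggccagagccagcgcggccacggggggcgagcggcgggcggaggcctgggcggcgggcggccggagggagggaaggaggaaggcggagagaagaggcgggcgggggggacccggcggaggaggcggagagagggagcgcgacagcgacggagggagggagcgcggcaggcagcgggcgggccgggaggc
The full 8-base element TGACGTCA was in 0 of the 34 windows of members and in 1.79% of all 32851 windows. The core TGACG, which the full element contains, was in 8 of 34 member windows and in 20.8% of all windows. The members that held the core were Arid1b, Chd4, Kdm6a, Pbrm1, Smarcb1, Suz12 and Tet2. The E2F-type motif was in 2 member windows, those of Ezh2 and Dnmt1, and in 1.38% of all windows. These are matches of letters in a short window and not measured binding.

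Cells came from spleen and lymph nodes of WT (control) and PKA KO animals, and RNA was measured in naive CD4 T cells, in cells activated for 3 days with antibodies to CD3 and CD28, and in forskolin cells. Forskolin is a drug that switches on the enzyme making cyclic AMP. Those cells rested for 3 days in IL-7 before forskolin at 1 ug/mL for 4 hours. ATAC-seq, which reads open chromatin, covered both genotypes in the naive and activated states. Each of the 10 groups held 3 libraries, and no source used here says which animals they came from. In each RNA group 1 library had Y-linked reads (2434 to 5338 counts) and the others 0 to 14, so the 3 did not all come from the same animals. The p-values describe how libraries vary, part of which may be technical. The PKA gene removed, the deleter strain and the age of the animals are not given in the sources used here. No group of cells without forskolin matched the forskolin groups, so a genotype difference there covers the IL-7 rest and the drug together. The labels call these cells naive and do not say whether they were activated before the rest. RNA libraries held 7665955 to 11950488 counts in genes with a symbol, and ATAC libraries 18522373 to 25318916 counts in sites.

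The labels were checked on Prkaca, which encodes a catalytic subunit of PKA. Its level was 0.920 to 1.45 CPM, the count scaled to the library's total, in activated KO libraries and 43.2 to 55.5 CPM in activated WT libraries. The log2 difference, KO over WT, was -3.91 in naive, -5.49 in activated and -3.45 in forskolin cells. The CD4 T cell markers Cd3e, Cd3g, Cd4, Trac, Lck and Cd28 were above 0 in every RNA library. Of the 4 NK cell markers, at least 2 were at 0 in every library of each group. Other sums differed by genotype in naive cells without overlap. B cell markers other than Ighm held 6.03 to 8.03 CPM in naive KO against 2.57 to 4.35 CPM in naive WT. With Ighm included, the sum of all 7 overlapped, at 298 to 324 CPM in naive KO and 301 to 319 CPM in naive WT. CD8 T cell markers held 26.1 to 27.9 against 23.2 to 23.9 CPM, and the erythroid sum was higher in KO too. Lower in KO were the myeloid and dendritic sum (6.79 to 9.15 against 9.43 to 11.8 CPM) and the CD4 T cell sum (3836 to 3909 against 3915 to 4114 CPM). No single CD4 T cell marker was apart between genotypes in naive cells. In bulk RNA, fewer cells of a type and less RNA per cell cannot be told apart.

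Activation moved nearly the whole set, in directions that differed between roles. In WT cells 13 of 32 members rose and 17 fell by edgeR's quasi-likelihood test with Benjamini-Hochberg adjustment at 0.05. Of all 11980 genes tested 82.6% passed, 42.3% higher and 40.3% lower. Naive and activated libraries were fully apart for 30 of 32 members, beside 82.2% of all genes. The median log2 change was -0.43 for the members and 0.03 for all genes. Summed CPM of the proliferation markers Mki67, Top2a, Mcm2, Mcm5, Pcna and Ccnb1 moved with it, from 312 to 376 in naive WT to between 3028 and 3219 in activated WT libraries, and its part in these changes was not tested.

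The RNAs of the alternative catalytic subunits of PRC2 moved in opposite directions. Ezh2, the more active H3K27 methyltransferase, stood at 19.0, 29.3 and 22.2 CPM in naive WT and at 283, 283 and 293 CPM in activated WT libraries. Ezh1, its paralog known from resting cells, stood at 104, 111 and 90.3 CPM in naive WT and at 21.2, 22.5 and 22.2 CPM in activated WT libraries. Neither gene's groups overlapped, with log2 changes of 3.47 ± 0.12 (SE) for Ezh2 and -2.34 ± 0.08 for Ezh1. The structural partners Suz12 and Eed rose by 0.86 ± 0.06 and 1.24 ± 0.09 on the log2 scale.

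SWI/SNF genes also moved in both directions. Of the alternative ATPases, Smarca2 (BRM) fell from 208, 227 and 191 CPM in naive WT to 39.1, 37.7 and 36.2 CPM in activated WT libraries. Smarca4 (BRG1) rose from 232, 244 and 199 CPM to 322, 339.8 and 344 CPM. The groups of both genes were apart, and the log2 changes were -2.59 ± 0.07 for Smarca2 and 0.45 ± 0.07 for Smarca4. Among the 6 core subunits, Smarcc1 (1.48), Smarcb1 (1.13) and Smarce1 (0.38) rose in log2 terms. Smarcc2 (-0.65) and Smarcd2 (-0.58) fell, and Smarcd1 at 0.12 ± 0.08 did not pass the test. All 5 subunits that define BAF, PBAF or the Brd9-containing form fell, with Arid1a at -1.49, Arid2 at -0.78, Arid1b at -0.77, Pbrm1 at -0.72 and Brd9 at -0.28.

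The H3K4 and H3K36 methyltransferases and both H3K27 demethylases fell. The H3K4 methyltransferases Kmt2c, Kmt2d and Kmt2a had log2 changes of -2.47 ± 0.10, -1.87 ± 0.12 and -1.68 ± 0.10, and the H3K36 methyltransferase Setd2 had -0.82 ± 0.08. The H3K27 demethylases Kdm6b and Kdm6a had -0.91 ± 0.11 and -0.89 ± 0.31. DNA methylation enzymes moved the other way. Dnmt1, which maintains methylation after replication, had 1.34 ± 0.07, and Dnmt3a, which sets it anew, had 1.52 ± 0.09. Of the TET dioxygenases, Tet1 fell by 2.95 and Tet3 by 1.19 on the log2 scale, while Tet2 at -0.12 ± 0.13 did not pass. The deacetylases Hdac3 (0.82), Hdac2 (0.58) and Hdac1 (0.39) and the NuRD remodeller Chd4 (0.22) rose.

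In KO cells most members moved as in WT cells. There 13 of 32 members rose and 17 fell, beside 82.1% of all genes past the test, 42.3% higher and 39.8% lower. Libraries were fully apart for 30 of 32 members and 84.7% of all genes. Across genotypes 29 members passed with one sign in both. Hdac1 passed in WT only (0.18 ± 0.09 in KO), Smarcd1 in KO only (0.19 ± 0.08), and Tet2 in neither. The test of the difference itself, the KO response minus the WT response, called 0 of 32 members and 3.7% of all genes, 2.52% lower and 1.18% higher. At an unadjusted p under 0.05 it had 2 members, and DESeq2 and limma-voom each called 0. The difference between responses ran from -0.23 for Eed to 0.56 for Tet1, whose 95% interval was 0.07 to 1.06.

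**Figure D1:**
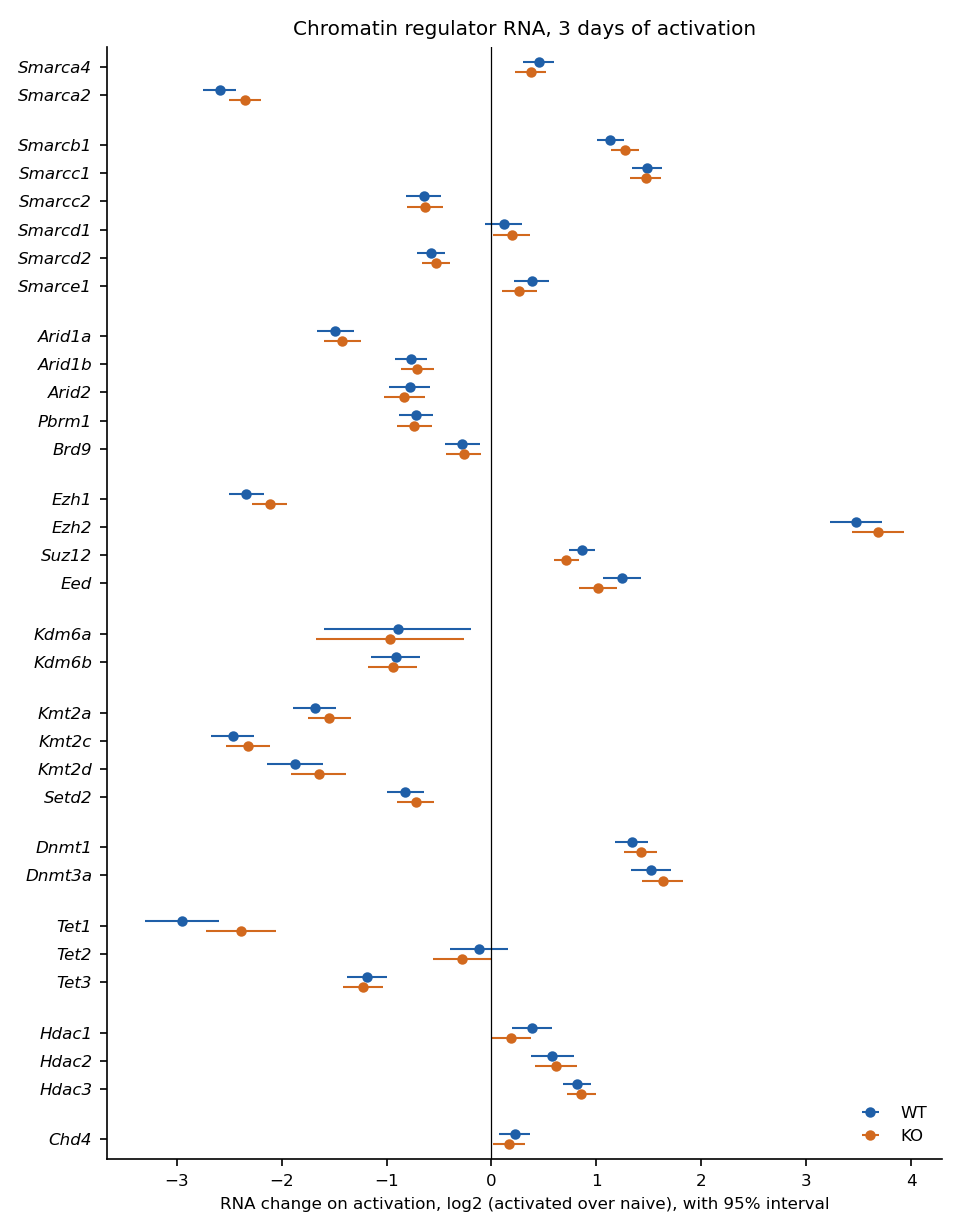
RNA change of each member on activation, as log2 of activated over naive with 95% intervals, in WT (blue) and KO (orange), grouped by role. Ezh2 at 3.47 and Tet1 at -2.95 in WT mark the ends of the range, and WT and KO points lie side by side for most members.

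In naive cells no member differed between genotypes by the same test. It called 0 of 32, with 0.242% of all genes called, 1 member at an unadjusted p under 0.05 and 0 by DESeq2 or limma-voom. That member was Kmt2c, at -0.23 ± 0.09 and an edgeR adjusted p of 0.799. For 31 of 32 members the 95% interval of the log2 difference lay within 0.5 of 0. The exception was the X-linked demethylase gene Kdm6a, with an interval from -0.71 to 0.66. No member's libraries were fully apart between genotypes, against 7.85% of all genes.

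In activated cells Dnmt3a was the 1 member of 32 to pass, beside 14.9% of all genes called, 9.04% lower and 5.89% higher. Dnmt3a stood at 359.7, 373 and 368 CPM in KO and at 252, 310.3 and 328 CPM in WT. All 3 KO libraries lay above all 3 WT libraries, with a log2 difference of 0.28 ± 0.09 (95% interval 0.10 to 0.47, edgeR adjusted p = 0.0381). The spread within WT was wide, and the call was lost without WT replicate 1 (adjusted p = 0.178) or 2 (0.0630) and without KO replicate 1 (0.0653), 2 (0.125) or 3 (0.108). By edgeR 5 members had an unadjusted p under 0.05, and DESeq2 and limma-voom each called 1 member. A fit on the 6 activated libraries alone called 6 members, 4 lower and 2 higher, and called more of all genes too. Markers moved with genotype here. The 7 B cell markers summed to 171 to 198 CPM in KO libraries against 106 to 132 CPM in WT, with Ighm alone at 165 to 189 against 105 to 129 CPM. The other 6 together held 5.50 to 8.56 CPM in KO against 1.52 to 3.04 CPM in WT, most of it Cd79b, with Ms4a1 at 0.772 to 1.46 against 0 to 0.190 CPM and Pax5 at 0 in all KO libraries. The 6 CD4 T cell markers summed to 1847 to 1861 CPM in KO against 1915 to 2024 CPM in WT, and moved both ways. Trac (176 to 193 against 261 to 279.6 CPM) and Cd28 (154 to 179.7 against 220.004 to 259 CPM) were lower in KO, and Lck (466 to 481 against 489 to 512 CPM) was too. Cd3e (219.7 to 235 against 176 to 208 CPM) and Cd3g (254 to 272 against 187 to 223 CPM) were higher, while Cd4 overlapped (518 to 548 against 520.1 to 619 CPM). The part of these shifts in the Dnmt3a difference was not tested.

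The other members gave small differences with narrow intervals. For 30 of 32 the 95% interval lay within 0.5 of 0 on the log2 scale, the exceptions being Kdm6a (-0.81 to 0.61) and Tet1 (0.12 to 0.92). Tet1 stood at 7.53, 7.14 and 4.96 CPM in KO and at 3.39, 4.84 and 5.30 CPM in WT, so its groups overlapped, and its difference of 0.52 ± 0.19 had an edgeR adjusted p of 0.0784. The median absolute log2 difference was 0.0922 for members and 0.154 for all genes, with median SE of 0.0829 and 0.111. Counts of libraries that did not overlap were close to the background, at 12 of 32 members (37.5%) against 39.2% of all genes. Ezh2 was one of these 12, at 329, 326 and 337 CPM in KO and 283, 283 and 293 CPM in WT, with a difference of 0.18 ± 0.10 that did not pass (edgeR adjusted p = 0.255).

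Kdm6a varied within groups in a way that followed Y-linked reads. In activated cells it stood at 38.2, 63.6 and 63.4 CPM in WT and at 36.6, 61.7 and 58.5 CPM in KO, and the low library in each group was the one with Y-linked reads. In naive cells it stood at 71.4, 110.4 and 98.2 CPM in WT and at 67.6, 103 and 109 CPM in KO. In forskolin cells it stood at 139, 138 and 86.8 CPM in WT and at 138, 136 and 83.0 CPM in KO. Each of the 6 RNA groups held 1 such library of 3, so genotypes were balanced for it. With a term for Y-linked reads, chosen after the values were seen, the activated comparison still called 1 member. That count was not set beside all genes in that fit.

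Forskolin cells showed many small genotype differences. Of 32 members 7 were higher and 6 lower in KO, which is 40.6% beside 38.5% of all genes called, 19.7% higher and 18.8% lower. The share is close to that background. Libraries were fully apart for 17 of 32 members (53.1%) and 48.1% of all genes. A total of 16 members had an unadjusted p under 0.05, DESeq2 called 10 members and limma-voom 12. In all comparisons, RNA or ATAC, counts at an unadjusted p and counts by DESeq2 or limma-voom were not set beside all genes or sites. No member differed by 1 or more on the log2 scale, and the differences ran from -0.35 to 0.47.

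Among SWI/SNF genes, Smarca2 stood at 234, 233 and 237 CPM in KO and at 291, 295 and 296 CPM in WT. Its KO libraries lay below all WT libraries, with a log2 difference of -0.35 ± 0.03 (edgeR adjusted p = 2.06e-10). Brd9, a bromodomain subunit, was lower too, at 81.1, 88.0 and 84.5 CPM in KO and 95.2, 93.7 and 102 CPM in WT (-0.22 ± 0.05). Arid1a, the DNA-binding subunit of canonical BAF, was higher, at 668, 670.4 and 649 CPM in KO and 588, 535 and 548 CPM in WT (0.23 ± 0.04). Groups of all 3 genes were apart. The core subunit Smarcc1 passed narrowly, at 106, 105 and 106 CPM in KO against 91.6, 98.0 and 96.6 CPM in WT (0.12 ± 0.05). So did Smarcd2, at 169, 177 and 173 CPM in KO against 181, 183 and 181 CPM in WT (-0.09 ± 0.04). Their edgeR adjusted p-values were 0.0421 and 0.0414. For Smarcc1 the adjusted p passed 0.05 when WT replicate 1 (0.174) or 3 (0.0654) was left out, and likewise each KO replicate (0.0870, 0.0730 and 0.0940). For Smarcd2 it did so when any WT replicate (0.0506, 0.118 and 0.0644) or KO replicate 1 (0.158) or 3 (0.104) was left out. DESeq2 did not call Smarcc1 (0.133), and Smarcd2 missed in 12 of 15 alternatives, among them DESeq2 (0.155), limma-voom (0.0538) and the replicate block (0.0618). The remaining 8 SWI/SNF genes did not pass.

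Histone mark enzymes also split. Kdm6b (JMJD3), the inducible H3K27 demethylase, stood at 188, 189 and 174 CPM in KO and at 141, 128 and 124 CPM in WT. This was the largest difference of the 32 in forskolin cells, at 0.47 ± 0.05 (edgeR adjusted p = 4.66e-09), with no overlap. Ezh2 stood at 37.7, 39.1 and 37.7 CPM in KO and 28.8, 31.1 and 30.3 CPM in WT (0.32 ± 0.07). Eed stood at 89.1, 98.0 and 94.8 CPM in KO and 79.2, 83.2 and 85.0 CPM in WT (0.16 ± 0.05). The Eed call was lost without WT replicate 1 (adjusted p = 0.0845) or KO replicate 2 (0.0963) and by DESeq2 (0.0583). Ezh2 and Eed were higher in every KO library than in any WT library, while the other PRC2 genes, Suz12 and Ezh1, did not pass. Hdac3 stood at 65.1, 64.8 and 65.1 CPM in KO and 73.1, 73.1 and 74.2 CPM in WT (-0.20 ± 0.05). Hdac1 stood at 161, 164 and 157 CPM in KO and 173, 186 and 177 CPM in WT (-0.18 ± 0.04). Both deacetylases were lower in all KO libraries, and Hdac2 at 0.02 ± 0.05 did not pass. None of the 4 H3K4 and H3K36 methyltransferases passed, with differences from -0.06 to 0.07 and 95% intervals that all included 0.

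All 3 TET genes passed, in opposite directions. Tet2 stood at 79.7, 79.0 and 74.0 CPM in KO and at 87.8, 94.2 and 95.7 CPM in WT (-0.28 ± 0.05). Tet3 stood at 334, 326 and 337 CPM in KO and at 268, 267 and 284 CPM in WT (0.26 ± 0.03). Tet1 stood at 23.3, 27.01 and 27.1 CPM in KO and at 17.3, 21.7 and 21.4 CPM in WT (0.33 ± 0.10). No TET gene's groups overlapped, and the Tet1 call was lost without WT replicate 1 (adjusted p = 0.0762) or KO replicate 3 (0.0531). The DNA methyltransferases Dnmt1 (-0.06 ± 0.03) and Dnmt3a (0.10 ± 0.05) did not pass.

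Markers moved with genotype in forskolin cells. The CD4 T cell list summed to 2345 to 2437 CPM in KO and 2933 to 2999 CPM in WT libraries, with Cd4 itself at 598 to 646 and 908 to 960.3 CPM. Cd3e, Cd3g, Trac and Cd28 were lower in KO too, while Lck was higher (588 to 596 against 554 to 574 CPM). The list of 7 B cell markers summed to 326 to 337 CPM in KO and 169 to 191 CPM in WT libraries, nearly all of it from Ighm at 322 to 332 and 166 to 187 CPM. The other 6 B cell markers together held 4.15 to 4.998 CPM in KO libraries and 2.48 to 3.52 CPM in WT, with Ms4a1 and Pax5 at 0 in all WT libraries. KO libraries also held more counts, 9404642 to 11802115 against 7665955 to 9312606. The part of these shifts in the differences above was not tested.

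**Figure D2:**
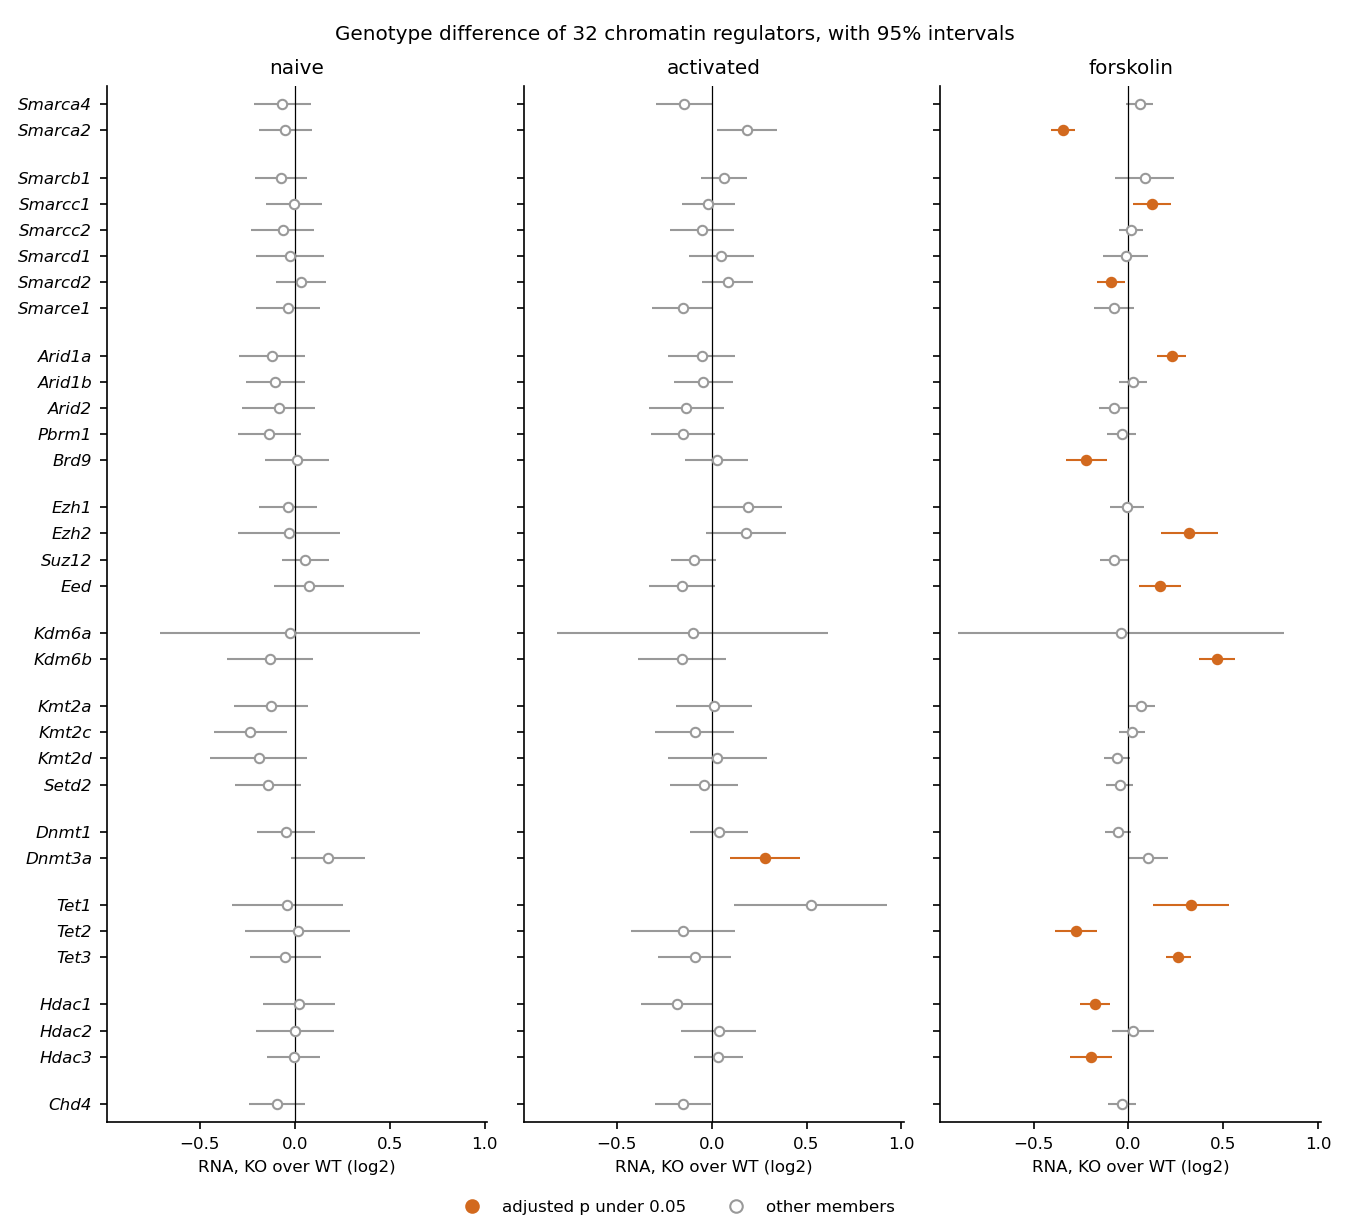
Genotype difference of each member in naive, activated and forskolin cells, as log2 of KO over WT with 95% intervals. Filled orange points passed edgeR's test, which were 0 members in naive, 1 in activated (Dnmt3a) and 13 in forskolin cells, and the wide intervals belong to Kdm6a.

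Whether a genotype difference was itself different with forskolin was tested in a joint fit of all 18 RNA libraries, as the forskolin difference minus the activated difference. The tables were deposited separately, and the cells of the tables differ in the IL-7 rest and possibly in earlier activation as well as in the drug. The test called 5 of 32 members, 1 lower and 4 higher, with 18.1% of all genes called, 5.82% lower and 12.3% higher. Smarca2 had -0.50 ± 0.09 (edgeR adjusted p = 0.000341), from 0.19 ± 0.07 in activated to -0.35 ± 0.03 in forskolin cells. Kdm6b had 0.66 ± 0.14 (adjusted p = 0.00285), from -0.16 ± 0.11 to 0.47 ± 0.05. These calls held under all 21 alternatives. Tet3 (0.39 ± 0.11), Eed (0.36 ± 0.11) and Arid1a (0.32 ± 0.11) also passed, with adjusted p of 0.0180, 0.0303 and 0.0452. For this test, counts under the alternatives were not set beside all genes. Upper-quartile scaling turned the split to 4 lower and 1 higher. The count fell to between 2 and 3 when activated WT replicate 1, activated KO replicate 2 or 3, forskolin WT replicate 2 or forskolin KO replicate 2 or 3 was left out.

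**Figure D3:**
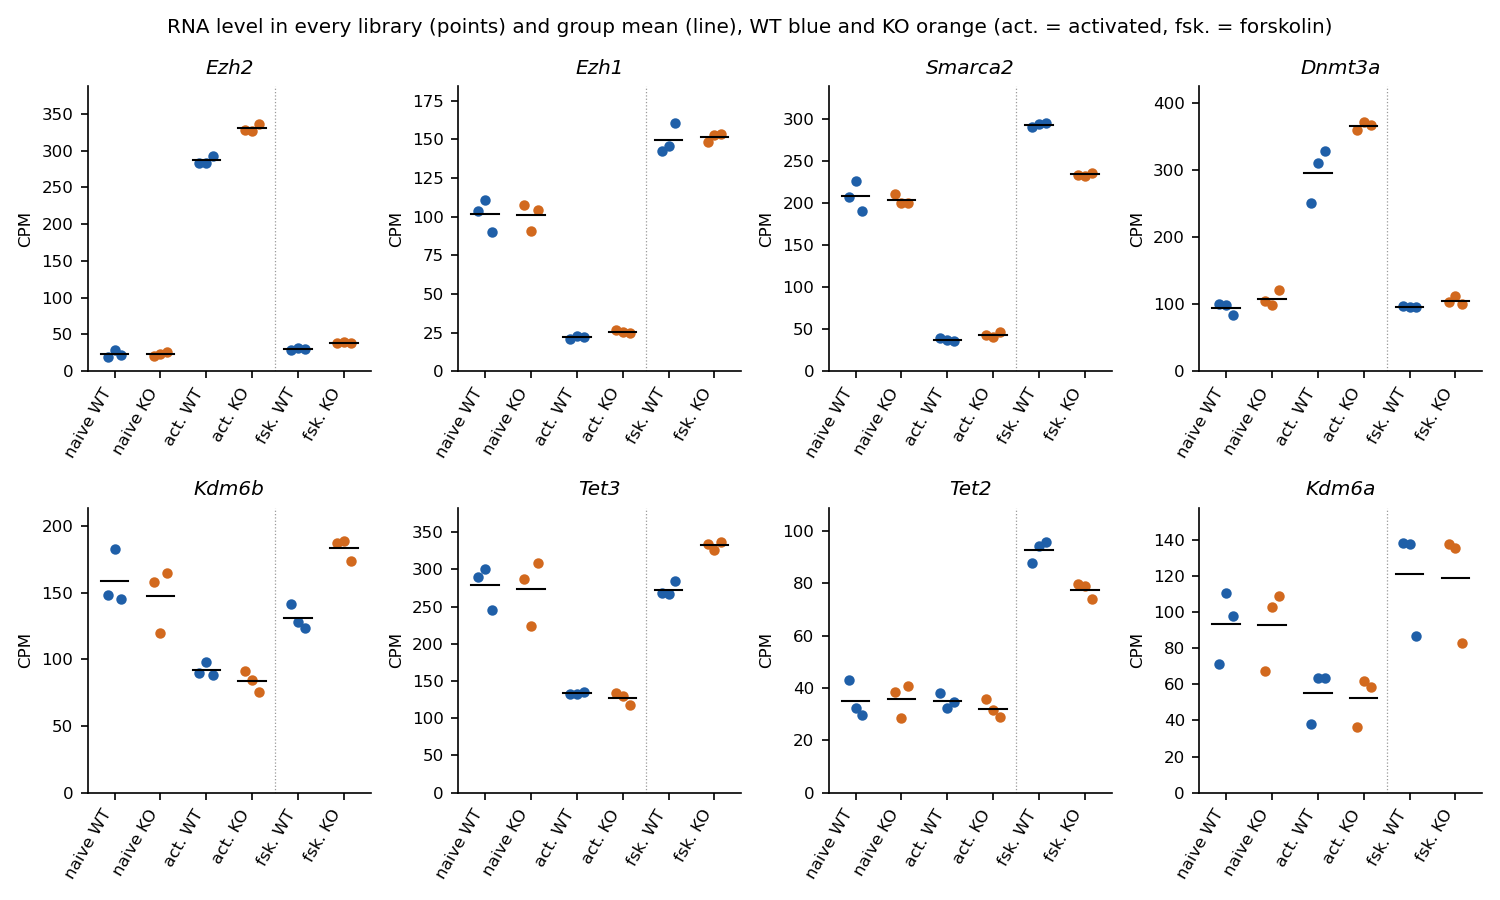
RNA level in CPM of 8 members in every library (points) with group means (lines), WT in blue and KO in orange, and a dotted line between the separately deposited tables. Ezh2, Smarca2, Dnmt3a, Kdm6b, Tet2 and Tet3 separate by genotype in forskolin cells, and Ezh2, Ezh1, Smarca2 and Dnmt3a in activated cells. Not all of these passed the test. Kdm6a has 1 low library in each group.

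Open chromatin at the members' own genes differed between genotypes about as often as elsewhere by edgeR, and in a smaller share of sites by the authors' deposited FDR. Sites were counted as a member's when they overlapped its RefSeq span or the 10 kb on either side, which gave 408 sites at 31 members, 330 of them inside a span. No site lay there for Smarcd2. In activated cells edgeR called 59 of the 408 lower and 54 higher in KO. That is 27.7% of member sites beside 28.4% of all 110797 sites tested, 17.5% lower and 10.9% higher. At least 1 called site lay at 26 members, a count that was not set beside all genes. The authors' deposited FDR called 5 member sites, all lower, which is 1.23% beside 5.16% of all sites, 4.64% lower and 0.519% higher. Without activated KO replicate 2 edgeR called 71 member sites, a count not set beside all sites in that fit.

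Counts by gene ranged widely, beside 17.5% lower and 10.9% higher of all sites. Arid1b had 69 sites, 15 lower and 9 higher in activated KO cells. Dnmt3a had 25 sites with 8 lower and 8 higher, and Tet3 had 22 sites with 8 lower and 2 higher. Chd4 with 11 sites, Suz12 with 9, Eed with 6, Smarcd1 with 4 and Brd9 with 3 had no called site.

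At start sites, 22 sites of 21 members overlapped a start window, and activated KO cells had 0 of them lower and 3 higher (13.6%). Of all 10170 start-site sites 21.9% were called, 5.5% lower and 16.4% higher, and 6 member sites had an unadjusted p under 0.05. The 3 were those of Dnmt1 (0.20), Smarca4 (0.17) and Ezh2 (0.13), in log2 of KO over WT. Scaling to total counts in sites called 7 higher and 0 lower, beside 30.8% higher and 5.10% lower of all start-site sites. The Ezh2 and Dnmt1 sites overlap the windows printed above that hold the E2F-type motif. In naive cells 0 of these 22 sites were called, 1 had an unadjusted p under 0.05, and 0.796% of all start-site sites were called, 0.403% lower and 0.393% higher. The Dnmt3a start site at chr12:3806769-3807169 differed by -0.02 and did not pass. None of the start-site members but Dnmt3a passed the RNA test in these cells.

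In naive cells 6 of 408 member sites were called by edgeR, 3 lower and 3 higher, beside 1.54% of all sites, 0.607% lower and 0.938% higher. The authors' deposited FDR called 0, with 6 member sites at a deposited p under 0.05, beside 0.0171% of all sites. The count by edgeR was 3 without naive WT replicate 1 or naive KO replicate 3. The test of whether the genotype difference differed between activated and naive cells called 22 member sites, 17 lower and 5 higher, beside 5.58% of all sites, 5.09% lower and 0.491% higher. Scaling to total counts gave 17 lower and 16 higher, beside 7.07% of all sites. A replicate block called 43, beside 9.66% of all sites.

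Activation itself called 362 of 408 member sites in WT, 185 lower and 177 higher, beside 89.9% of all sites, 38.5% lower and 51.4% higher. In KO it called 351, 183 lower and 168 higher, beside 88.5% of all sites, 38.8% lower and 49.7% higher. The direction depended on scaling. With scaling to total counts the split was 131 lower and 219 higher in WT and 117 lower and 221 higher in KO, beside 89.4% and 88.8% of all sites called, and the median of all sites moved from 0.54 to 1.09 in WT. At start sites 22 of 22 were lower in WT with TMM scaling, beside 92.6% of all start-site sites called, 70.7% lower and 21.9% higher. With total counts 12 were lower and 4 higher, beside 51.0% and 34.4% of all start-site sites. In KO 21 of 22 were lower, beside 91.5% called, 70.4% lower, and with total counts 9 were lower and 5 higher, beside 42.2% and 38.5%.

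**Figure D4:**
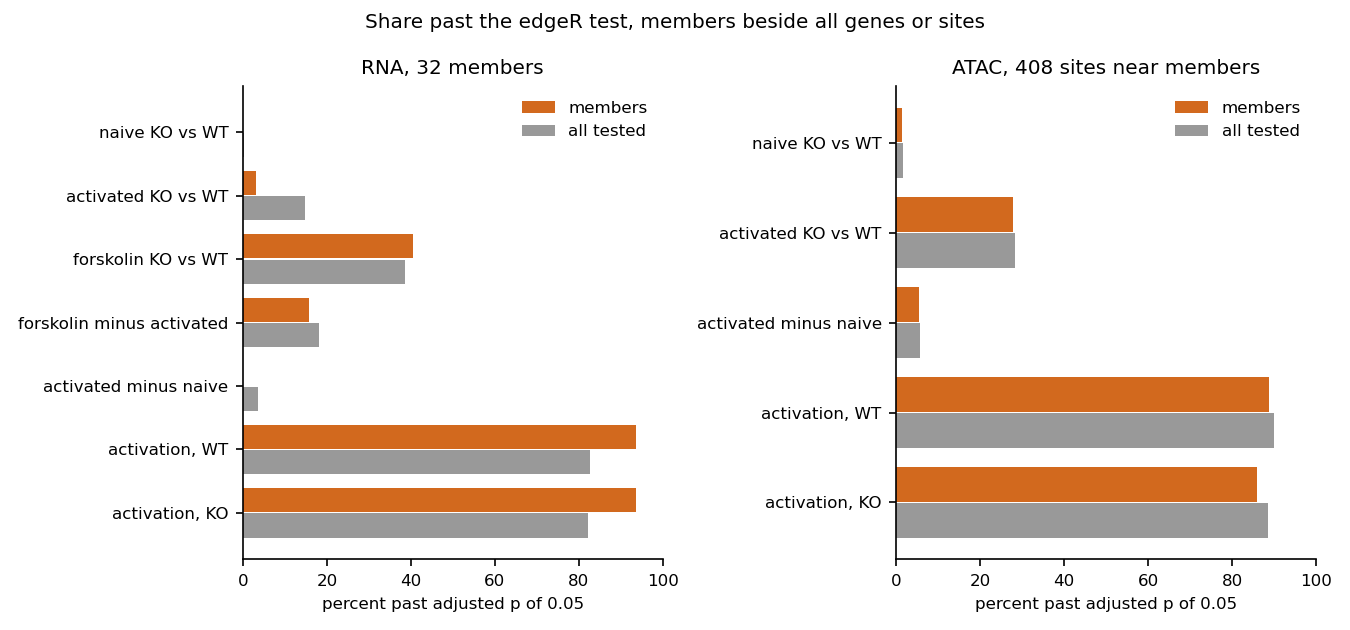
Share of members (orange) and of all genes or sites tested (grey) past edgeR's adjusted p of 0.05 in each comparison, in percent, for RNA at left and ATAC at right. Member sites match all sites closely in activated cells, at 27.7% and 28.4%. In the fit shared with naive libraries 1 of 32 member genes passed beside 14.9% of all genes. With a fit on the activated libraries alone, more members and more of all genes passed.

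The 5 sites past both edgeR and the authors' deposited FDR in activated cells lay at Smarcc1, Smarce1, Pbrm1, Tet3 and Hdac2, and were singled out after their values were seen. The RNA of none of these 5 genes passed the test in the same cells. The Tet3 site, at chr6:83405552-83405952 inside the gene span, stood at 1.51, 1.70 and 1.68 CPM in activated KO and 6.48, 8.33 and 8.26 CPM in activated WT libraries. Its log2 difference was -2.25 ± 0.16, with an FDR of 0.000224 in the authors' deposited table. The Hdac2 site, at chr10:36965724-36966124 and 8173 bases outside the span, stood at 1.65, 1.41 and 1.02 CPM in KO and 6.48, 6.50 and 6.87 CPM in WT (-2.30 ± 0.20). Both sites were lower in every activated KO library than in any WT library. In naive libraries the Tet3 site stood at 0.251 to 0.545 CPM and the Hdac2 site at 0.0419 to 0.230 CPM.

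The Smarcc1 site, at chr9:110217287-110217687 inside the span, stood at 0.688, 1.02 and 0.884 CPM in KO and 2.41, 2.37 and 2.86 CPM in WT (-1.58 ± 0.25). The Pbrm1 site, at chr14:31088518-31088918 in the spans of Pbrm1 and Smim4, stood at 2.80, 1.99 and 2.89 CPM in KO and 6.75, 5.41 and 5.07 CPM in WT (-1.19 ± 0.21). These too were apart between genotypes in activated cells, and in naive libraries they reached at most 0.154 and 0.216 CPM. The Smarce1 site, at chr11:99203925-99204325 and 4722 bases outside the span, closed on activation instead. It stood at 54.2, 51.5 and 51.7 CPM in naive WT, 39.0, 45.0 and 41.6 CPM in naive KO, 20.1, 19.3 and 19.0 CPM in activated WT and 6.51, 5.09 and 5.54 CPM in activated KO libraries. It was lower in KO in both states, with log2 differences of -0.31 ± 0.07 in naive cells (edgeR adjusted p = 0.0158) and -1.79 ± 0.09 in activated cells. The naive difference did not pass by the authors' deposited FDR (0.656). All 5 differences in activated cells held under 18 of 18 alternatives. The authors' deposited FDR is among these and was used to choose the sites, so its outcome was fixed in advance. The edgeR test was used to choose them too. The other alternatives reuse the same counts, so they are no independent support.

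**Figure D5:**
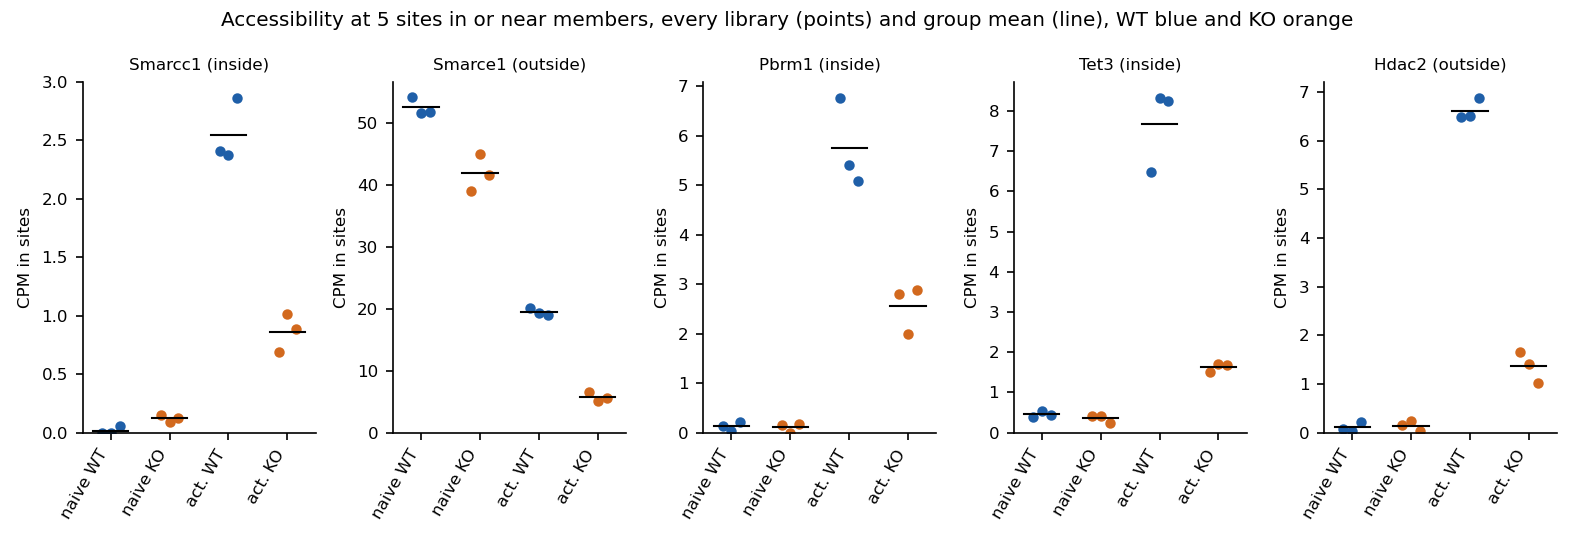
Accessibility of the 5 sites in CPM of the library's counts in sites, for every ATAC library (points) with group means (lines), WT in blue and KO in orange, and whether the site lies inside the gene span. In activated cells each site is lower in all 3 KO libraries than in all 3 WT libraries, and the Smarce1 site alone starts high in naive cells.

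Wider lists of chromatin genes, 167 genes in 9 lists with 162 tested, were set beside the members. In activated KO cells 15 were lower and 6 higher (13.0%, beside 14.9% of all genes), and in forskolin KO cells 44 were lower and 28 higher of 161 (44.7%, beside 38.5%). In naive KO cells 0 passed, with 1 at an unadjusted p under 0.05 and 0 by DESeq2 or limma-voom. List medians in activated cells ran from -0.11 for the other histone demethylases to 0.09 for the Polycomb partners, beside 0.01 for all genes. The lists of other demethylases (3 lower of 18), acetyltransferases and bromodomain readers (2 lower of 17), other DNA methylation factors (2 lower of 9) and NuRD partners (1 lower of 9) had no higher member. Polycomb partners had 3 lower and 2 higher of 26, other deacetylases and corepressors 2 and 2 of 21, other histone methyltransferases 2 and 1 of 29, and other ATP-dependent remodellers 0 and 1 of 20. Of 13 further BAF and PBAF subunits tested 0 passed, with 2 at an unadjusted p under 0.05 and 0 by DESeq2 or limma-voom.

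Several partners and paralogs of the members differed in activated cells. Pcgf5, a Polycomb PRC1 subunit, stood at 48.3 to 61.9 CPM in KO and 123 to 162 CPM in WT (log2 -1.38 ± 0.12, edgeR adjusted p = 8.84e-07). Dot1l, the H3K79 methyltransferase, stood at 224 to 233 and 365 to 401 CPM (-0.78 ± 0.09). Gadd45b, tied to active DNA demethylation, stood at 54.0 to 64.0 and 96.8 to 131 CPM (-0.91 ± 0.13). All 3 were lower in each KO library than in any WT library. The Polycomb readers Cbx6 (0.33) and Cbx7 (0.51) were higher in KO. The class IIa deacetylases Hdac7 (0.48) and Hdac5 (0.38) were higher in KO and Hdac4 (-0.36) lower, while the remodeller Chd3 was higher (0.38). The histone methyltransferase Kmt2b (-0.27) and the demethylases Kdm5b (-0.37) and Kdm4c (-0.29) were lower, and Smyd2 (0.33) was higher. The acetyltransferases Kat6a (-0.27) and Kat6b (-0.34), the deacetylase Sirt2 (-0.31), the DNA glycosylase Tdg (-0.23) and the NuRD subunit Gatad2a (-0.22) were lower.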

How the data were processed

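The members and gene lists were chosen with earlier results of these data known. Per the labels, the genome build was mm10, and the aligner, counter and peak caller are not given in the sources used here. The authors deposited unscaled counts per gene in one RNA table of naive and activated cells and another of forskolin cells, and unscaled counts per site in one ATAC table for each state, on the same sites. The authors deposited fold values in log2 as WT minus KO of unscaled means, and their sign was turned here. The authors deposited a p-value and FDR for each site.

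The 1314 rows without a symbol, 0.128% to 0.159% of a library's counts, were left out. edgeR 4.0.16 (R 4.3.3) was run on genes kept by filterByExpr, scaled by TMM, with robust quasi-likelihood dispersions and Benjamini-Hochberg adjustment over all features at 0.05. The 12 naive and activated RNA libraries shared a fit, as did the 12 ATAC libraries, and the 6 forskolin libraries had their own. CPM is the count scaled to the library's own total, without TMM. A count of 0 allows up to 3 counts, which is 0.251 to 0.391 CPM, for counting error only. The code was tested on simulated data with known changes. Replicates of every group differed by more than sampling noise.

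Members were all named, those past a genotype test with every library, and of each wider list up to 2 genes per direction with the smallest p in activated cells. Of these, 1 gene is not reported here. Same-numbered activated RNA libraries deviated together (correlations 0.56, 0.28 and 0.24). So did WT replicate 3 with KO replicate 2 (0.25) and WT replicate 2 with KO replicate 3 (0.19). Only the replicate 1 libraries stood out, and the numbers pair replicates 2 and 3 neither by the data nor by the labels. Alternatives were RLE and upper-quartile scaling, total-count scaling for ATAC, other low-count filters, FDR 0.01, limma-voom 3.58.1, DESeq2 1.42.0, a replicate block, fits on a state alone, and each library left out.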

Additional observations from a re-analysis of the deposited data

Results flagged for a closer look

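Of the members, 5 had a genotype difference with forskolin that differed from the one in activated cells by the joint test: Smarca2 at -0.50, Kdm6b at 0.66, Tet3 at 0.39, Eed at 0.36 and Arid1a at 0.32, in log2 of the forskolin difference minus the activated one. Smarca2 and Kdm6b passed in all 21 alternatives. Tet3 did not pass in 3 of them (adjusted p up to 0.0614, without activated KO replicate 3), Eed not in 9 (up to 0.102, without activated WT replicate 1) and Arid1a not in 16 (up to 0.129, with upper-quartile scaling).

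At 4 sites the genotype difference in activated cells differed from that in naive cells. The values, activated minus naive, were -4.29 for the Smarcc1 site, -1.48 for the Smarce1 site, -1.91 for the Tet3 site and -2.68 for the Hdac2 site. The Smarcc1 site held at most 3 counts in any naive library, so its value depends on the prior count of the fit and is no bound. It did not pass without naive WT replicate 1 (adjusted p = 0.0508) or 2 (0.0506) or naive KO replicate 3 (0.0551). The Hdac2 site did not pass in 10 of 16 alternatives, with adjusted p up to 0.275 without naive KO replicate 2. The Pbrm1 site did not pass (adjusted p = 0.577).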

How the results depend on the processing

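Among Prkaca, the called genotype differences and the 5 sites past both rules, none changed sign under any alternative run. Activation changes, uncalled differences and wider-list genes were not followed one by one. In activated RNA the count of 1 called member became 0 at FDR 0.01, 2 with upper-quartile scaling and 6 with a fit on the state alone, where 21.4% of all genes were called, and leaving out a library gave 0 to 1. The 5 members whose genotype difference changed with forskolin became 2 at FDR 0.01 and ran from 2 to 4 with a library left out. At member sites, FDR 0.01 gave 3 in naive cells, 67 in activated cells and 13 for the difference between them. The authors' deposited FDR gave 0 in naive and 5 in activated cells, and sites within gene spans alone gave 3 in naive cells. Leaving out a library gave 3 to 8 in naive, 71 to 119 in activated cells and 17 to 24 for their difference. The site counts at FDR 0.01 and with a library left out were not set beside all sites. Nor were the RNA counts here set beside all genes, apart from the fit on the state alone. The counts for naive RNA, activation in RNA and ATAC, and forskolin RNA (9 to 13 with a library left out) stayed within 1.5 times.

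With a replicate block the called members were 0 in naive, 1 in activated and 12 in forskolin RNA. The called sites were 11 in naive cells, 148 in activated cells and 43 for their difference. With the block, the member gene counts were not set beside all genes, nor the naive and activated site counts beside all sites. Outside activated RNA, same-numbered correlations ran from 0.00 to 0.41 in naive RNA and 0.08 to 0.22 in forskolin RNA. They ran from 0.05 to 0.15 in naive ATAC and 0.09 to 0.31 in activated ATAC, and pairing was not established there either. Groups of 3 libraries and the unknown source of replicates limit all of these tests, and naive counts of 0 to 3 limit the Smarcc1 site.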

Other observations

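The giant H3K4 methyltransferase genes had higher CPM in the forskolin table than in naive cells. Kmt2d stood at 1611 to 1745 CPM in the forskolin libraries and 358 to 586 CPM in the naive ones, Kmt2c at 680.1 to 709.9 and 209 to 318 CPM, and Kmt2a at 1003 to 1113 and 329 to 468 CPM, both genotypes included. The tables were deposited separately and these levels were not tested across them.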
